A study of Mus musculus with 6 samples.

Results

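Olfactory receptor genes stand in long tandem arrays, and the arrays on mouse chromosomes 2 and 9 were examined here as 2 regions of the mm9 genome build: positions 85200001 to 89900000 of chromosome 2 (4.7 Mb) and 38000001 to 39800000 of chromosome 9 (1.8 Mb). The limits were given by position and are not defined by a measured value, though they were chosen with earlier results of these data known. Every cytosine listed for 5-formylcytosine (5fC) or 5-hydroxymethylcytosine (5hmC) inside them was taken: 2161 of 6248342 5fC sites and 14617 of 20807956 5hmC sites in the whole series. The regions make up 0.269% of the autosomal length but only 0.0346% of the 5fC sites in the series lay there, and 0.0702% of the 5hmC sites. Each cluster was set against the 5 Mb on both of its sides. Neither list names genes, so the label was not checked against gene positions of the same build.

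The cells were E14, an established male mouse embryonic stem cell line, grown on gelatin in serum with LIF, and no treatment is labelled. The 6 libraries were 2 technical replicates of 5fC from a culture at passage 14, 2 of 5hmC from the same passage and 2 of 5hmC from another culture at passage 12. Whether the 5hmC counts used here include the passage 12 libraries is not known. In Pvu-Seal-seq the restriction enzyme PvuRts1I cleaves near modified cytosines, and fragments carrying a chemical tag are captured. The position of the modified base is then inferred from the cut end. For each mark the deposited table gives a single read number per cytosine, pooled over libraries and not normalised, with at least 2 reads at every site: 102305049 5fC reads and 264008048 5hmC reads in all. No value therefore has a replicate error, no test was run, and every interval below is a 95% interval that covers counting error alone.

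TET enzymes oxidise 5-methylcytosine to 5hmC and then to 5fC, which the glycosylase TDG can remove and repair can replace with unmodified cytosine. In embryonic stem cells these oxidised bases are known mainly from enhancers, promoters and the bodies of active genes. Olfactory receptors are G protein-coupled receptors whose genes are transcribed in olfactory sensory neurons, where a cell chooses a single receptor allele. The promoters of these genes are AT-rich. Expression was not measured in the data used here, so the silence of the genes in these cells is background and not a result.

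Most listed cytosines lie in CG dinucleotides, so the number of CG in the promoters of these genes is given first. The part of CG content in the counts below was not tested. Gene order and promoter sequences came from RefSeq's table on build GRCm38.p6 and give names and letters only. Their positions do not apply to the mm9 limits. Along chromosome 2 the longest array held 293 olfactory receptor genes (71 of them pseudogenes) from Olfr987 to Olfr1274, bounded by the coding genes Lrrc55 and Ptprj. It was interrupted by Fads2b after 9 receptor genes and by Pramel7 and Pramel6 after 138. The array on chromosome 9 held 127 receptor genes (31 pseudogenes) from Olfr160 to Olfr986 between Panx3 and Zfp202, interrupted by Vwa5a after 51 receptor genes, AW551984 after 97 and Tmem225 after 126. Whether these arrays fill the mm9 intervals exactly was not tested.

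CG was counted in the 250 bases before each annotated start (the letters CG read the same on both strands). At least 1 CG stood in 54.0% of 187 promoters of the chromosome 2 array and 56.3% of 80 on chromosome 9, against 93.2% of 31903 promoters of genes that are not olfactory receptors. Median numbers were 1 CG per promoter in each array and 6 in the other genes. A receptor promoter with the median number of CG from each array, the earliest such in gene order, is printed with the coding gene that follows the array. Ptprj, a receptor-type tyrosine phosphatase, is shown at its start with the most CG, and Zfp202 encodes a zinc finger protein. The sequences run 5′ to 3′ and CG is in capitals. Their GRCm38.p6 positions are chr2:85353925-85354174 on the minus strand for Olfr988, chr2:90580596-90580845 on the minus strand for Ptprj, chr9:37803639-37803888 on the plus strand for Olfr876 and chr9:40192066-40192315 on the plus strand for Zfp202.
Olfr988: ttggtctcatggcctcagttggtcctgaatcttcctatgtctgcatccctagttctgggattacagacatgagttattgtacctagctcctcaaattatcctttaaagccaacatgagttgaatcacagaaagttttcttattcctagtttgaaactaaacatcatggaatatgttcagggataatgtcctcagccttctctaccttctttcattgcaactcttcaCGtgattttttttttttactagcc
Ptprj: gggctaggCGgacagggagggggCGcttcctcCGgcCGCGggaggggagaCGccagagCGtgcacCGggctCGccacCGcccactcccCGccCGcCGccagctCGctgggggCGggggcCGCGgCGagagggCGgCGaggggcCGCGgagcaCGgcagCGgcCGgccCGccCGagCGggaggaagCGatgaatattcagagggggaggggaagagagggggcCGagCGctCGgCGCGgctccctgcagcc
Olfr876: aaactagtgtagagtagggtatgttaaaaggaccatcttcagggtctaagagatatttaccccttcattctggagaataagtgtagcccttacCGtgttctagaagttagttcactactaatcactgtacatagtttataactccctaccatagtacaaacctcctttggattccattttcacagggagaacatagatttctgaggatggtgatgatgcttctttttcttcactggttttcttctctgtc
Zfp202: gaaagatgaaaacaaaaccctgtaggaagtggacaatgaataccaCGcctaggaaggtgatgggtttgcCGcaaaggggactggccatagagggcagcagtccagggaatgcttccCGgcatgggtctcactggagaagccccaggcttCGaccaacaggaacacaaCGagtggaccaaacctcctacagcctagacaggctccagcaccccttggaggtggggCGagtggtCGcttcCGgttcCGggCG
The receptor promoters hold 1 CG each, whereas that of Ptprj holds 34 and that of Zfp202 holds 10. Both of the latter exceed the median of 6 in genes that are not olfactory receptors, so the printed contrast is larger than the typical one. A letter count in a promoter says nothing of which CG was modified.

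Both marks were sparse across the clusters, and 5fC was the sparser. The chromosome 2 cluster held 297 5fC sites per Mb (interval 282 to 313), against 2405 in its flanks (2374 to 2435), which is 8.10-fold lower (7.67 to 8.55). Its 5hmC density was 2157 sites per Mb (2116 to 2200), against 8403 in the flanks (8346 to 8460), or 3.89-fold lower (3.82 to 3.98). On chromosome 9 the cluster held 425 5fC sites per Mb (395 to 456), against 3128 in the flanks (3093 to 3163), a 7.36-fold lower density (6.85 to 7.92). For 5hmC the values were 2487 in the cluster (2415 to 2561) and 9955 in the flanks (9893 to 10017), a ratio of 0.250 (0.242 to 0.257). These differences far exceed counting error, which is the only error that can be given.

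The flanks of each cluster were unequal, so the size of the drop depended on the side. On chromosome 2 the flank at lower coordinates held 1334 5fC and 5413 5hmC sites per Mb and the flank at higher coordinates 3476 and 11392. The chromosome 2 cluster was thus 4.49-fold lower in 5fC and 2.51-fold lower in 5hmC than the poorer flank, and 11.7-fold and 5.28-fold lower than the richer one. On chromosome 9 the cluster was 3.65-fold lower in 5fC and 2.43-fold lower in 5hmC than the flank at lower coordinates, and 11.1-fold and 5.58-fold lower than the flank at higher coordinates. Part of each poorer flank lay within the range of the cluster: of its 50 windows of 100 kb, 23 on chromosome 2 and 25 on chromosome 9 held no more 5hmC sites than the 95th percentile of the cluster's own windows. The richer flanks had 6 and 0 such windows among 50 each. At or below the median of the cluster's windows were 3 windows of the poorer flank on chromosome 2 and 16 on chromosome 9. In the richer flanks 2 and 0 were.

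**Figure D1:**
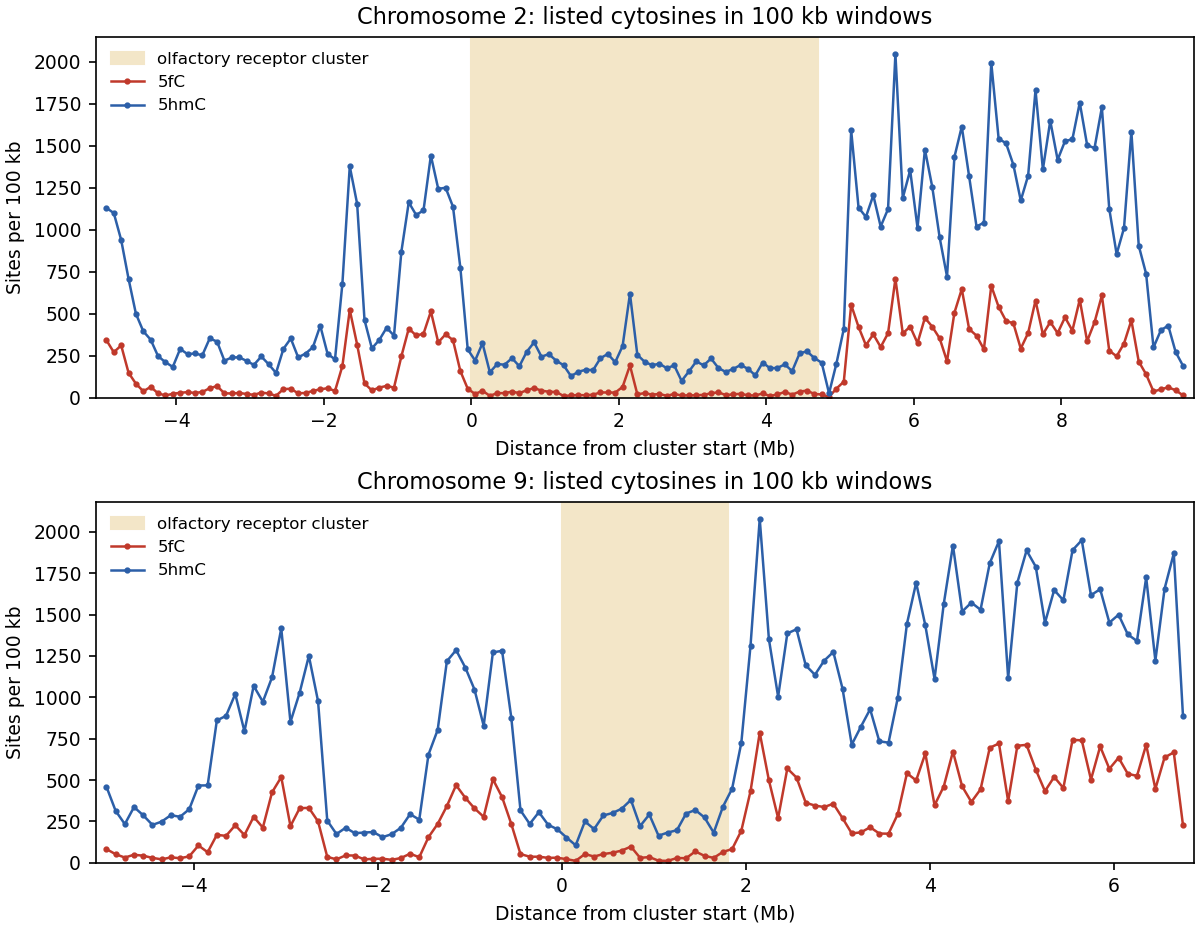
Listed 5fC and 5hmC cytosines in 100 kb windows (vertical axis, sites per window) against distance from the cluster start in Mb, with the cluster shaded, for chromosome 2 (top) and chromosome 9 (bottom). Apart from 1 window at 619 5hmC and 193 5fC sites, the chromosome 2 cluster stays at or below 330 5hmC sites per window, and stretches of the flank on the left lie as low.

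Against all other autosomal DNA, flanks included, the chromosome 2 cluster was 8.64-fold lower in 5fC sites per Mb and 3.93-fold lower in 5hmC. The chromosome 9 cluster was 6.04-fold and 3.41-fold lower. When the other autosomes were tiled without overlap in stretches of 4.7 Mb, 8 of 501 stretches held fewer 5fC sites and 10 held fewer 5hmC sites than the chromosome 2 cluster. The counts include stretches with assembly gaps. In tiles of 1.8 Mb, 172 of 1325 held fewer 5fC sites and 139 fewer 5hmC sites than the chromosome 9 cluster. The chromosome 2 cluster therefore lies near the bottom of the autosomes for its length, and the chromosome 9 cluster in the lowest 13.0% for 5fC and 10.5% for 5hmC.

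The scarcity extended over nearly every window. A window was called low when it held under 0.5 times the autosomal median, which was 158 5fC and 703 5hmC sites per 100 kb. Among other autosomal windows, 35.4% were low for 5fC and 29.2% for 5hmC. In the chromosome 2 cluster 46 of 47 windows were low for each mark, and in the chromosome 9 cluster 17 of 18. The median cluster window held 23 5fC and 199 5hmC sites on chromosome 2 and 36.5 and 262 on chromosome 9. Of other autosomal windows, 10.7% for 5fC and 11.0% for 5hmC were sparser than the chromosome 2 median, and 19.9% were sparser than that of chromosome 9 for each mark. In the flanks at lower coordinates, 32 of 50 windows on chromosome 2 and 26 of 50 on chromosome 9 were also low for 5fC, and 26 and 25 for 5hmC.

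The low stretches did not stop at the limits used. Each cluster was extended outwards over adjoining 100 kb windows under 0.5 times the mean 5hmC density of its flanks. Around the chromosome 2 cluster the stretch so defined ran from 85100001 to 90300000 (5.2 Mb), with 1 window inside the cluster, from 87300001 to 87400000, above that level. It therefore reached 0.1 Mb beyond the limit at lower coordinates and 0.4 Mb beyond the other. Around the chromosome 9 cluster it ran from 37500001 to 39900000 (2.4 Mb), 0.5 Mb and 0.1 Mb beyond the limits. At the higher end on chromosome 2, the last low window held 96 5fC and 410 5hmC sites and the next outside 553 and 1591. At the lower end on chromosome 9, the outermost low window held 53 5fC and 317 5hmC sites, against 235 and 877 in its outer neighbour. At the higher end on chromosome 9 the values were 83 and 448, against 194 and 725. For the lower end on chromosome 2 they were 54 and 288, against 159 and 773. The edges were set by 5hmC density, so a step in 5hmC there is partly by construction. In windows of 50 kb, the last 200 kb before the lower limit on chromosome 2 held 362, 411, 192 and 96 5hmC sites and 60, 99, 47 and 7 5fC sites, listed towards the cluster. The first 50 kb inside held 85 5hmC and 11 5fC sites. The 50 kb from 90150001 to 90200000, beyond the higher limit on chromosome 2, held no listed site of either mark, and whether reads can reach it was not tested. Which annotated feature lies at these edges was not determined.

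Within each cluster the windows named by rule were the 3 with the most and the 3 with the fewest 5hmC sites. On chromosome 2 the window from 87300001 to 87400000 held 193 5fC and 619 5hmC sites, the next were 86000001 to 86100000 with 58 and 330 and 85300001 to 85400000 with 42 and 325. The sparsest were 88000001 to 88100000 with 14 and 101, 86500001 to 86600000 with 14 and 129, and 89000001 to 89100000 with 14 and 134. On chromosome 9 the most sites were in 38700001 to 38800000 (98 5fC and 380 5hmC), 39700001 to 39800000 (66 and 339) and 38600001 to 38700000 (74 and 327). The fewest were in 38100001 to 38200000 (12 and 106), 38000001 to 38100000 (22 and 153) and 39000001 to 39100000 (13 and 164). On chromosome 2 a single window thus stood far above the rest for both marks, while on chromosome 9 the gap was smaller, with 98 5fC sites in the richest window and 74 in the next by 5fC, and 380 and 339 by 5hmC.

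The rich window inside the chromosome 2 cluster was closer to the flanks than to the rest of the cluster in 5fC per 5hmC, in the CG share of 5hmC sites and in strand pairing. It held 13.8% of the cluster's 5fC sites and 6.10% of its 5hmC sites, and had 31.2 5fC sites per 100 5hmC sites, against 12.6 in the rest of the cluster. Of the 5hmC sites in the window 75.9% were in CG (72.4 to 79.1%), against 90.1% in the rest (89.5 to 90.7%). Both strands were listed at 21.8% of its 5fC dyads (15.4 to 29.8%) and 8.80% of those in the rest (7.10 to 10.9%). For 5hmC dyads the shares were 37.4% (32.5 to 42.7%) and 24.9% (23.9 to 25.9%). The window was chosen for its number of sites, so these shares describe it and are no test. Its sites were concentrated in 4 adjoining windows of 10 kb from 87330001 to 87370000, with 27, 31, 47 and 29 5fC sites and 77, 80, 110 and 65 5hmC sites. In gene order the chromosome 2 array is broken at an inner point by Pramel7 and Pramel6, coding genes of the PRAME-like family. Whether they lie in this window was not determined, since no mm9 annotation was used.

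On a finer scale 5fC was missing from many stretches. Of the 10 kb windows in the chromosome 2 cluster, 22.3% had no listed 5fC site and 0.638% no 5hmC site, against 11.2% and 0.800% in the poorer flank and 5.60% and 2.80% in the richer one. Among 10 kb windows of other autosomal DNA, 7.85% had no 5fC site and 2.01% no 5hmC site. On chromosome 9 the shares were 13.3% and 0 in the cluster and 7.20% and 0.600% in the flank at lower coordinates, while 2 of 500 windows lacked 5fC in the other flank and 0 lacked 5hmC. In the richest 10% of its 10 kb windows stood 45.8% of the 5fC sites and 24.7% of the 5hmC sites of the chromosome 2 cluster, and 36.6% and 21.7% on chromosome 9, against 39.0% and 27.9% across other autosomal DNA. The flanks at lower coordinates were at least as concentrated except for 5fC on chromosome 2, which was close, with 45.4% of 5fC and 30.2% of 5hmC sites on chromosome 2 and 39.98% and 27.7% on chromosome 9. Neighbouring listed 5fC dyads were a median of 1644 bases apart in the chromosome 2 cluster, against 174 and 134 in its flanks. For 5hmC the distances were 301 bases, against 114 and 75. In the chromosome 9 cluster the medians were 876 bases for 5fC, against 203 and 111, and 272 bases for 5hmC, against 118 and 70. The longest stretch of a cluster without a listed 5hmC dyad ran from 89046342 to 89087101 on chromosome 2, over 40759 bases. Absence from a list does not show absence of the mark, and stretches that reads cannot reach were not told apart.

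The fall was steeper for 5fC than for 5hmC, so 5fC was also lower relative to 5hmC. The chromosome 2 cluster had 13.8 5fC sites per 100 5hmC sites, against 28.6 in its flanks, a ratio of 0.481 (0.454 to 0.510). The chromosome 9 cluster had 17.1, against 31.4, a ratio of 0.544 (0.503 to 0.588). Against the poorer flank alone the ratio was 0.559 (0.525 to 0.595) on chromosome 2 and 0.666 (0.614 to 0.721) on chromosome 9. Counted in reads, with sites of more than 1000 reads left out, cluster over flanks came to 0.584 on chromosome 2 and 0.618 on chromosome 9. The exclusion matters on chromosome 9, where 24 5fC and 12 5hmC sites of the flank at lower coordinates exceed 1000 reads, and no site of either cluster does.

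Other sparse DNA also had a lower ratio. Across autosomal windows of 100 or more 5hmC sites, the median number of 5fC sites per 100 5hmC sites rose with 5hmC density, with 11.3 in windows of 150 to 200 5hmC sites and 30.5 in windows of 1000 to 1500. The 150 windows of 50 to 100 5hmC sites, sparser than any cluster window, had a median of 16.7. Windows were compared within the range of the central 50% of each cluster's windows by 5hmC sites. In that range the chromosome 2 cluster had 12.2 5fC per 100 5hmC sites in 23 windows and other autosomal windows had 12.7 in 2092. The chromosome 9 cluster had 15.2 in 8 windows and other autosomal windows 13.9 in 3567. Of all cluster windows, 31 of 47 on chromosome 2 lay between the lower and upper quartiles of other windows in their density class, with 8 below and 8 above. Of the chromosome 9 windows 4 of 18 lay between them, with 3 below and 11 above. A ratio under 0.5 times that of other autosomal DNA was found in 23.1% of other autosomal windows, in 37 of 47 windows of the chromosome 2 cluster and in 8 of 18 on chromosome 9.

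**Figure D2:**
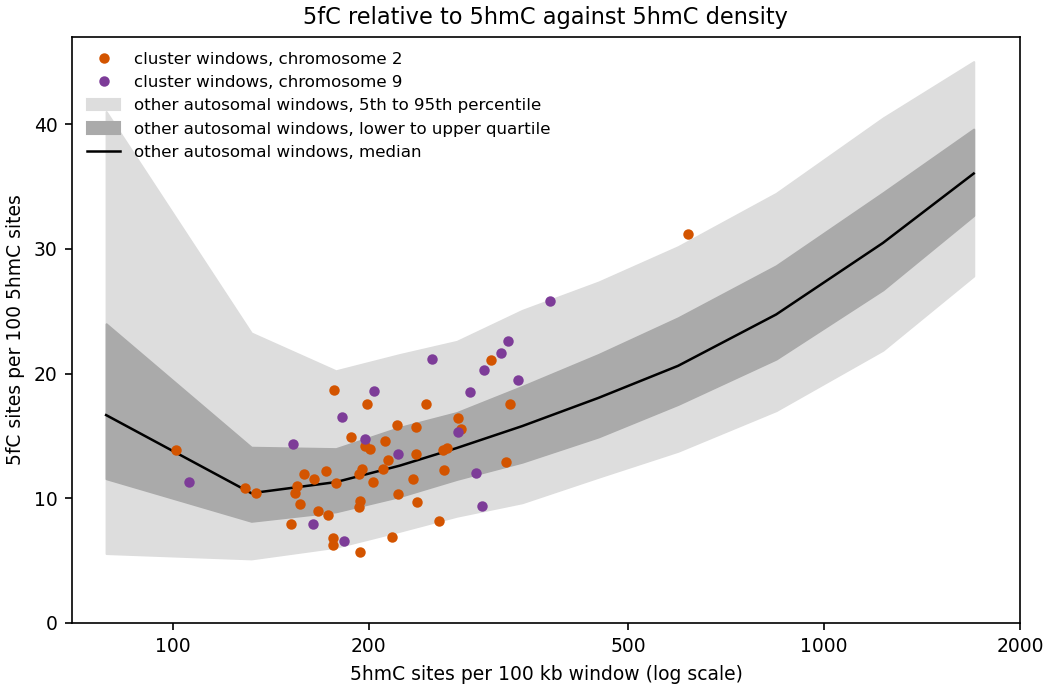
5fC sites per 100 5hmC sites (vertical axis) against 5hmC sites per 100 kb window (horizontal, log scale). Points are cluster windows, the line is the median of other autosomal windows, and the bands are their quartile range and their 5th to 95th percentiles. Chromosome 2 windows lie about the median, with 31 of 47 inside the quartiles, and 11 of 18 chromosome 9 windows lie above the upper quartile.

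At the level of single bases, a 5hmC site in a cluster was less often listed for 5fC than a flank site. Of 5hmC CG sites, 9.51% in the chromosome 2 cluster were also 5fC sites (8.92 to 10.1%), against 23.2% in its flanks (22.9 to 23.6%). The chromosome 9 values were 13.2% in the cluster (12.2 to 14.3%) and 25.6% in the flanks (25.3 to 25.9%). Cluster sites had fewer 5hmC reads, with a median of 6 on chromosome 2 and 7 on chromosome 9, against 8 in the flanks of each. Within classes of equal 5hmC reads the cluster was lower in 6 of 6 classes on each chromosome, and the interval of the difference excluded 0 in 6 classes on chromosome 2 and 5 on chromosome 9. At 9 to 16 reads the shares were 10.1% in the chromosome 2 cluster and 19.5% in its flanks, and 14.5% and 21.2% on chromosome 9. Flank shares weighted to the read numbers of the cluster were 16.9% on chromosome 2 and 20.2% on chromosome 9. In windows of like 5hmC density the cluster share was 8.17% on chromosome 2 (7.38 to 9.03%), with 8.72% in other autosomal windows (8.64 to 8.81%). It was 11.6% on chromosome 9 (10.1 to 13.1%), with 9.82% in the others (9.75 to 9.89%).

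In the other direction the overlap at CG was slightly lower than in the flanks on chromosome 2 and not detectably different on chromosome 9. Of 5fC CG sites, 78.1% in the chromosome 2 cluster were listed for 5hmC (75.5 to 80.4%), against 83.1% in its flanks, a difference of -5.08 points (-7.67 to -2.67). On chromosome 9 the cluster share was 84.2% (81.1 to 86.9%), against 82.8%, and the interval of the difference, -1.71 to 4.16 points, includes 0. In windows of like 5hmC density the CG shares were 77.1% in the chromosome 2 cluster (73.0 to 80.8%) and 78.3% in other autosomal windows, and 83.1% (77.9 to 87.3%) and 79.4% on chromosome 9. Outside CG fewer 5fC sites had 5hmC: 34.5% of 293 in the chromosome 2 cluster, against 53.4% of 5733 in its flanks, and 39.7% of 156 on chromosome 9, against 56.5% of 8168. The differences were -19.0 points (-24.3 to -13.2) and -16.7 points (-24.1 to -8.81). In the windows of like density the non-CG share was 28.9% in the chromosome 2 cluster (21.6 to 37.6%) and 30.9% in other autosomal windows, and on chromosome 9 it was 32.3% in the cluster (22.2 to 44.4%) and 33.2% in the others.

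CG took a larger share of 5hmC sites in the clusters, and the difference for 5fC was smaller and depended on which sites were compared. CG made up 89.3% of 5hmC sites in the chromosome 2 cluster (88.7 to 89.9%), against 77.9% in its flanks (77.7 to 78.2%), and 86.9% on chromosome 9 (85.8 to 87.8%), against 75.0% (74.7 to 75.3%). The differences were 11.3 points (10.7 to 12.0) and 11.9 points (10.8 to 12.9). For 5fC the CG share was 79.0% in the chromosome 2 cluster, against 76.2%, a difference of 2.85 points (0.575 to 4.98). This did not hold at 10 or more reads per site (1.98 points, -0.966 to 4.63) or against the flank at lower coordinates alone (1.91 points, -0.515 to 4.21). On chromosome 9 it was 79.6%, against 73.9%, a difference of 5.72 points (2.68 to 8.47). In windows of like 5hmC density the 5fC shares were 78.7% in the chromosome 2 cluster (75.1 to 81.8%) and 77.8% in other autosomal windows, and 78.9% (74.0 to 83.1%) and 78.6% on chromosome 9. The CG share of 5hmC sites grew with reads per site in clusters and flanks alike, and the cluster was higher in 6 of 6 read classes on each chromosome. At 2 reads per site, CG was 77.8% of 5hmC sites in the chromosome 2 cluster and 53.7% in its flanks, and 71.5% and 49.6% on chromosome 9. The gap narrowed with reads and was 1.27 points above 32 reads on chromosome 2, where its interval (-0.865 to 1.99) includes 0. For 5hmC in such windows the share was 90.3% in the chromosome 2 cluster (89.4 to 91.1%) and 89.0% in other autosomal windows (88.9 to 89.1%). For chromosome 9 it was 86.4% in the cluster (84.8 to 87.8%) and 88.2% in the others (88.1 to 88.3%), so the order was opposite on the 2 chromosomes.

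**Figure D3:**
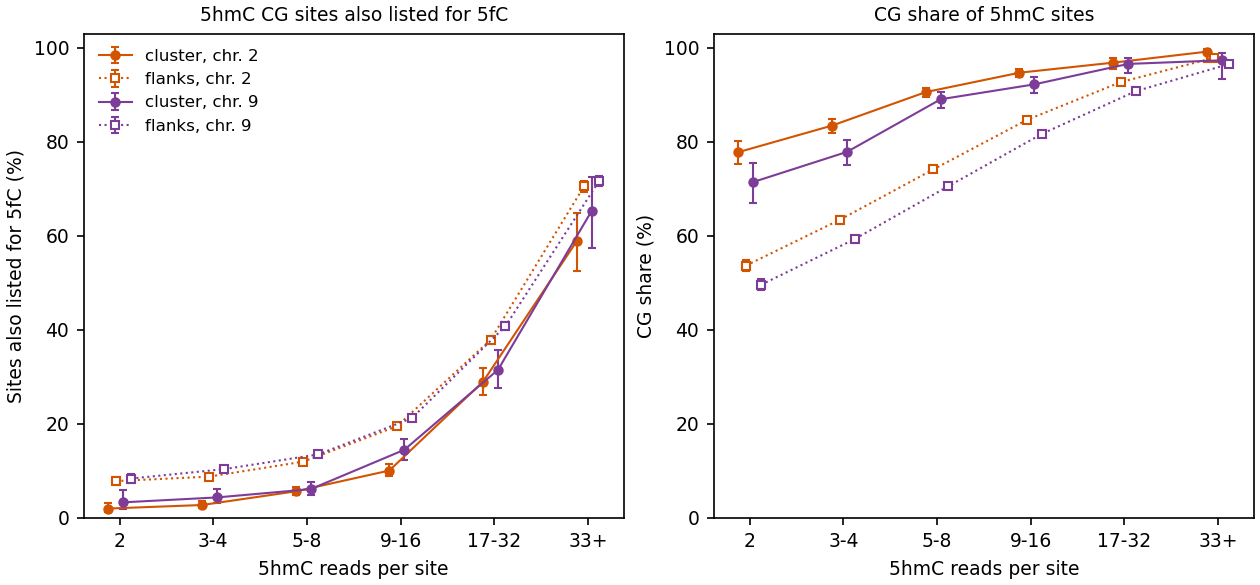
Share of 5hmC CG sites also listed for 5fC (left) and CG share of all 5hmC sites (right), in percent, by 5hmC reads per site. Filled circles are the clusters, open squares their flanks, and bars are 95% Wilson intervals. Clusters lie below the flanks in every read class on the left and above them on the right, with the gap on the right closing above 32 reads.

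A smaller share of non-CG sites stood at a fixed distance from a listed CG in the clusters than in their flanks. Listed 5hmC dyads were themselves sparser in the clusters, at 1535 per Mb against 4701 on chromosome 2 and 1682 against 5322 on chromosome 9. The part of dyad density in these shares was not tested, and windows of like 5hmC density were not compared. The origin of the spacing was not tested. Non-CG 5hmC sites numbered 15.1 per 100 listed CG dyads in the chromosome 2 cluster, against 39.4 in its flanks, and 19.4 on chromosome 9, against 46.8. Such a site had a CG dyad 20 to 23 bases 3′ of it in 46.5% of cases in the chromosome 2 cluster (43.6 to 49.5%), against 65.9% in the flanks (65.2 to 66.6%). On chromosome 9 the share was 39.8% (35.9 to 43.8%), against 60.2% (59.6 to 60.8%). For 5fC the shares were 30.0% in the chromosome 2 cluster (25.1 to 35.5%), against 56.6%, and 33.3% on chromosome 9 (26.4 to 41.1%), against 53.1%. At 30 to 33 bases, a distance used for comparison, 2.57% of non-CG 5hmC sites in the chromosome 2 cluster and 4.97% in its flanks had a CG dyad. Without the non-CG sites that have such a partner, CG made up 94.0% of 5hmC sites in the chromosome 2 cluster, against 91.2%, and 91.7% on chromosome 9, against 88.3%. For 5fC the same step turned the order on chromosome 2, to 84.3% in the cluster and 88.0% in its flanks, a difference of -3.72 points (-5.84 to -1.80). It left 85.4% and 85.8% on chromosome 9, where the interval of the difference (-3.18 to 2.07) includes 0.

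Among non-CG sites CA took a larger share in the clusters, except for 5fC on chromosome 9, where the difference was within counting error. For 5fC, CA was 56.3% of non-CG sites in the chromosome 2 cluster, against 42.3% in its flanks, a difference of 14.0 points (8.18 to 19.8). It was 50.0% on chromosome 9, against 44.1%, and the interval of the difference (-1.94 to 13.7) includes 0. For 5hmC it was 55.0% in the chromosome 2 cluster, against 47.5%, a difference of 7.44 points (4.38 to 10.5), and 54.4% on chromosome 9, against 48.7%, a difference of 5.74 points (1.65 to 9.77). Among non-CG sites with no CG partner at 20 to 23 bases the CA differences were 15.2 points (8.09 to 22.0) and 1.61 points (-7.92 to 11.2) for 5fC on chromosomes 2 and 9, and 4.595 points (0.411 to 8.63) and 7.30 points (2.09 to 12.2) for 5hmC. CT was lower, for example 29.7% of non-CG 5fC sites in the chromosome 2 cluster and 37.4% in its flanks. The exception was again 5fC on chromosome 9, at -4.60 points with an interval (-11.4 to 3.13) that includes 0. Among non-CG 5hmC sites with no partner the CT difference was within counting error on each chromosome. CT was 20.6% in the chromosome 2 cluster and 19.8% in its flanks, a difference of 0.796 points (-2.45 to 4.40). On chromosome 9 it was 20.6%, against 22.9%, a difference of -2.24 points (-6.22 to 2.35). The base composition of the regions was not measured, since no mm9 genome was used, and its part in these shares was not tested. The CA and CT shares were not compared in windows of like 5hmC density.

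CG reads the same on both strands, and a smaller share of listed dyads in the clusters had both cytosines listed. Of 5fC dyads, 10.4% of 999 in the chromosome 2 cluster were on both strands (8.67 to 12.5%), against 18.9% of 15402 in its flanks (18.3 to 19.5%), and 13.2% of 538 on chromosome 9 (10.6 to 16.3%), against 19.9% of 19267 (19.4 to 20.5%). Of 5hmC dyads, the shares were 25.5% of 7214 in the chromosome 2 cluster (24.5 to 26.5%), against 39.3% of 47010 (38.9 to 39.7%), and 28.4% of 3028 on chromosome 9 (26.9 to 30.1%), against 40.3% of 53219 (39.9 to 40.7%). The differences were -13.8 points (-14.9 to -12.7) on chromosome 2 and -11.9 points (-13.5 to -10.2) on chromosome 9 for 5hmC, and -8.49 points (-10.3 to -6.35) and -6.74 points (-9.41 to -3.57) for 5fC.

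Reads per dyad moved with this difference. They were summed over the listed strands, so a dyad listed on both strands has more reads partly by construction. Classes and weights by reads per dyad thus hold part of the outcome, and depth cannot be separated from pairing by them. The median 5hmC dyad had 8 reads in the chromosome 2 cluster and 13 in its flanks, and 9 and 14 on chromosome 9. At equal reads the 5hmC difference was small: at 9 to 16 reads 35.1% of dyads were on both strands in the chromosome 2 cluster and 34.7% in its flanks, and at 17 to 32 reads 58.5% in the chromosome 9 cluster and 59.3% in its flanks. The interval of the difference included 0 in 6 of 6 classes on chromosome 2 and in 5 of 6 on chromosome 9, where the exception was 8.92% against 11.8% at 5 to 8 reads. The class of 2 to 4 reads is near 0 by rule for each mark, since each listed strand has at least 2 reads. That class therefore says nothing about a difference, though it is among the 6 classes counted for each mark. With flank dyads weighted to the reads of the cluster, the share was 25.5% in the chromosome 2 cluster and 25.4% in its flanks, and 28.4% and 29.2% on chromosome 9. For 5fC a difference was left after this weighting, with 10.4% in the chromosome 2 cluster and 14.2% in its weighted flanks, and 13.2% and 16.0% on chromosome 9. The 5fC interval excluded 0 in 2 of 6 classes on chromosome 2 and 1 of 6 on chromosome 9, each time with the cluster lower. At 33 to 64 reads 40.9% of 66 cluster dyads on chromosome 2 were on both strands, against 57.5% of 1829 in the flanks, a difference of -16.6 points (-27.8 to -4.30). In windows of like 5hmC density the 5fC share was 7.99% in the chromosome 2 cluster (5.75 to 11.0%) and 8.50% in other autosomal windows, and 10.5% in the chromosome 9 cluster (7.07 to 15.2%) and 9.45% in the others. For 5hmC it was 23.7% (22.3 to 25.2%) and 24.3% on chromosome 2, and 27.6% (25.3 to 30.0%) and 26.0% on chromosome 9.

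**Figure D4:**
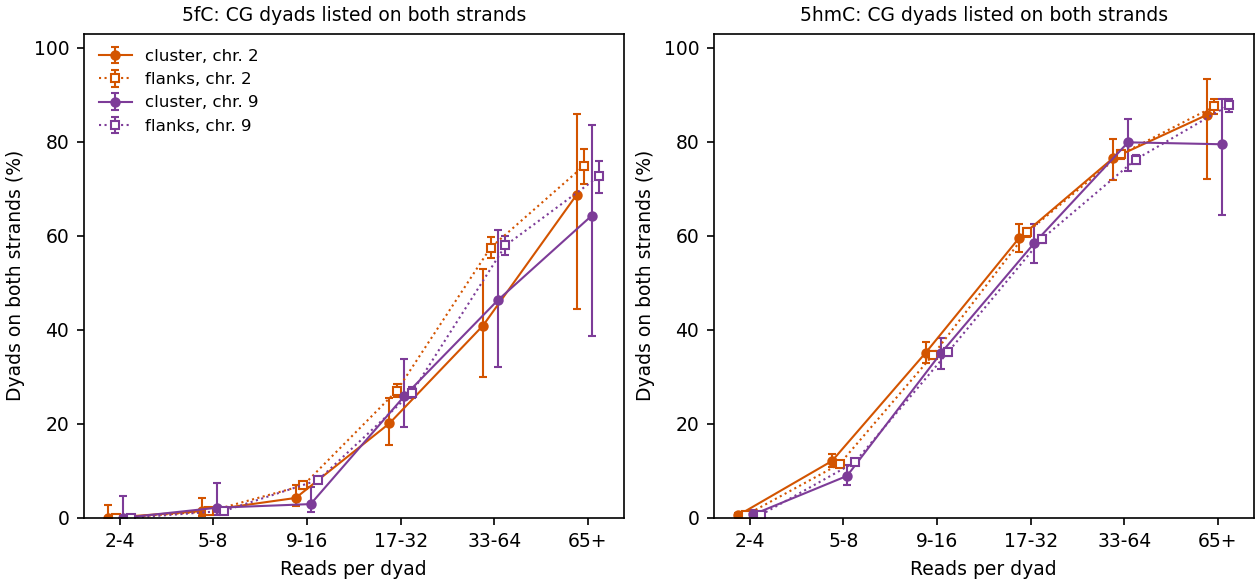
Share of listed CG dyads with both strands listed, in percent, by reads per dyad summed over its listed strands, for 5fC (left) and 5hmC (right). Filled circles are the clusters, open squares their flanks, and bars are 95% Wilson intervals. For 5hmC the clusters follow the flanks, at 35.1% beside 34.7% on chromosome 2 at 9 to 16 reads, and for 5fC the cluster points lie lower from 9 reads upward.

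The strands themselves were even. The plus strand held 49.6% of 5fC and 49.6% of 5hmC sites in the chromosome 2 cluster and 51.1% and 49.5% on chromosome 9, and each interval included 50%. Where a dyad was listed on 1 strand for each mark, both marks were on the same strand in 82.1% of 464 dyads of the chromosome 2 cluster (78.4 to 85.3%), against 80.5% of 5615 in its flanks (79.4 to 81.5%). For chromosome 9 it was 85.6% of 236 (80.5 to 89.5%), against 79.9% of 6975 (79.0 to 80.9%). The difference was 1.63 points on chromosome 2, with an interval (-2.25 to 5.02) that includes 0, and 5.65 points on chromosome 9 (0.516 to 9.68).

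All 4 possible listings, both marks on both strands, were found at 68 dyads of the chromosome 2 cluster and 47 of the chromosome 9 cluster. The deepest on chromosome 2 were at 87342048, in the rich window, with 71 plus and 9 minus 5fC reads and 114 and 27 5hmC reads, at 88583673 with 56 and 59 5fC and 36 and 17 5hmC reads, and at 88109028 with 23 and 66 5fC and 20 and 53 5hmC reads. On chromosome 9 they were at 39783530 with 10 and 73 5fC and 6 and 116 5hmC reads, at 39459190 with 88 and 10 5fC and 84 and 21 5hmC reads, and at 38621090 with 27 and 27 5fC and 61 and 53 5hmC reads. In 4 of these 6 dyads the same strand led for each mark by more than 2 to 1.

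The deepest single cytosines of the clusters were all in CG. For 5fC they were 85858178 on the plus strand (99 reads), 87358778 on the minus strand (96) and 88277617 on the minus strand (75) of chromosome 2, and 39684822 minus (163), 38398658 minus (101) and 39007470 plus (95) on chromosome 9. Their 5hmC reads ranged from 32 to 76. For 5hmC they were 86123737 minus (121), 87342048 plus (114) and 85862531 minus (111) on chromosome 2, and 38222973 plus (122), 39783531 minus (116) and 38772655 minus (115) on chromosome 9, with 6 to 73 5fC reads. All 12 listings had reads of the other mark. Sparse as they are, the clusters thus contained deeply read sites of both marks, though none above 163 reads.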

How the data were processed

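Genomic DNA of E14 cells was measured by Pvu-Seal-seq in 6 libraries. The authors deposited 2 tables, for 5fC and 5hmC, each with a raw read count for every cytosine in it, and with chromosome, position, dinucleotide and strand. The build was mm9, and Bowtie, cutadapt, bcl2fastq and CASAVA were used, per the submitters' processing notes. The rule by which a cytosine was listed, the way 5fC was separated from 5hmC and the libraries pooled were not given in the sources used here. All 5hmC labels name 1 table, and it is not known if it includes passage 12. Its name carries b1, and the titles of the passage 14 libraries carry bio1. Positions were converted to count from 1.

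Sites inside each cluster and in 5 Mb on both sides were counted, by 100 kb windows, with 10 kb and 50 kb for detail. The length of other autosomal DNA runs from the first to the last listed base and includes assembly gaps. Shares have Wilson intervals, differences of shares Newcombe's, density ratios exact conditional binomial intervals, and ratios of ratios log-scale intervals from 4 counts, all at 95%. PCR reads without molecular identifiers and neighbouring sites are not independent, so intervals cover counting error only. No count model was fitted, since a pooled count has no replicate. The cluster limits, measures and alternatives were chosen with earlier results of these data known. Named windows, dyads and cytosines follow a rule by rank of sites or reads in each cluster. The counting was tested on simulated data with 20000 dyads and passed 6 of 6 checks. Python 3.11.15, numpy 2.4.6, pandas 2.3.3, scipy 1.17.1 and matplotlib 3.10.9 were used.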

Additional observations from a re-analysis of the deposited data

How the results depend on the processing

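No paired analysis was possible because each table holds 1 pooled read count per site and no value per replicate. Leaving out each library was not run for the same reason. Every point value kept its direction under each alternative of this section. Of these values 31 lay inside the counting interval of the reported one and 33 outside it, for causes that were not tested. For the CG share of 5fC sites on chromosome 2, the interval at 10 or more reads (-0.966 to 4.63 points) included 0. Leaving out partnered non-CG sites, which is not counted here, reversed that difference to -3.72 points (-5.84 to -1.80). Leaving out the 500 kb next to the limits, and the window richest in 5hmC, were chosen after the data were seen. Values are given for chromosome 2 and then chromosome 9 where each moved. For the density of the cluster over that of its flanks, sites of at least 10 reads gave 0.113 and 0.124 for 5fC and 0.173 and 0.191 for 5hmC. Flanks of 2.5 Mb gave 0.105 and 0.160 for 5fC and 0.237 and 0.286 for 5hmC. Reads without sites above 1000 gave 0.107 and 0.120 for 5fC and 0.183 and 0.194 for 5hmC. CG sites alone gave 0.146 for 5fC on chromosome 9 and 0.294 and 0.289 for 5hmC. Limits moved inwards by 200 kb gave 0.251 and 0.265 for 5hmC. Without the richest window 5fC stood at 0.109 and 0.125, and without the 500 kb next to the limits 5hmC on chromosome 9 stood at 0.242. For 5fC per 5hmC, cluster over flanks, sites of at least 10 reads gave 0.653 and 0.649 and reads gave 0.584 and 0.618. On chromosome 2 CG sites alone gave 0.436, flanks of 2.5 Mb 0.444 and leaving out the richest window 0.442. For 5hmC dyads on both strands, sites of at least 10 reads gave -8.95 and -8.63 points, and flanks of 2.5 Mb -15.3 points on chromosome 2. For the CG share of 5hmC sites they gave 5.68 and 7.01 points, and 12.3 points on chromosome 2. The chromosome 9 cluster rests on 765 5fC sites, which sets the width of its 5fC intervals.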
